A study of Homo sapiens with 30 samples.

Results

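The genes described here are 43 genes of S phase and DNA replication, taken as a named list and found by symbol in both gene count tables. The tables share 33867 genes (38526 and 36291 genes in all). All 43 passed the filter on low counts in both experiments, where 17418 and 17549 genes were tested. Their RNA was measured by bulk RNA sequencing in cells sorted from subclones 2 and 13. Their parent MDA-MB-231 is an established human line of triple-negative breast cancer. Cells carrying LeGO barcodes (a lentiviral vector family) grew in NSG mice, the NOD-SCID strain without the IL2R gamma chain, and were recovered from the primary tumour and from metastases in lung and liver. In the first experiment 3 mice (1, 2 and 3) gave every organ of both subclones, so 6 groups held 3 samples each. In the retransplantation experiment 3 other mice (4, 5 and 6) gave subclone 2 labelled lung metastasis or liver metastasis, and the labels leave unstated whether that organ is where the cells came from or where they grew.

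No drug or other treatment is named for any group, and all groups share the line, the barcoding and the host strain. Each subclone is 1 clone, so a difference between the subclones is a difference between 2 clones. NSG mice lack mature T, B and natural killer cells. Replicates are separate mice, and the same mice supplied both subclones and all organs of the first experiment. The lung and liver comparisons with the tumour therefore share the tumour samples, and the lung samples enter both of their own comparisons.

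Before S phase, the origin recognition complex (ORC), CDC6 and CDT1 load the ring of MCM2 to MCM7 onto DNA as an inactive helicase. CDC45, the GINS complex and MCM10 switch that helicase on, after which polymerase alpha with primase starts each strand and polymerases delta and epsilon extend it, held by the clamp PCNA that the RFC complex loads. RPA covers the single strand, FEN1 and LIG1 join the Okazaki fragments, RRM1, RRM2, TYMS and TK1 supply deoxynucleotides, UHRF1 carries DNA methylation to the new strand, and many of these genes are targets of E2F factors in dividing cells.

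The 18 samples of the first experiment held 11807225 to 82218315 counts and the 6 retransplantation samples 23406778 to 32322333. Genes high in this line were high throughout: the summed level of VIM, CD44, AXL, EGFR and KRT18 was 3999 CPM (counts scaled to a common library size) or more in every sample. Among human genes that mark other tissues, the albumin gene ALB reached at most 0.806 CPM in any sample and the surfactant gene SFTPC 3.49. The leukocyte gene PTPRC reached 2.99 and the matrix gene DCN 0.392. Other genes of these lists reached more, among them SERPINA1 212, PDGFRB 36.8, APOA1 23.8 and AGER 8.28 CPM. The host is a mouse and the counts are of human genes, so marker values cannot show how many host cells were present. The summed hepatocyte markers ranged from 14.7 to 236 CPM over all samples; most of that was SERPINA1. The 5 lung epithelial markers summed to 1.92 to 8.28 CPM, the 5 leukocyte markers to 0.372 to 15.7, the 4 endothelial markers to 8.51 to 46.4 and the 4 fibroblast markers to 6.60 to 49.4. The endothelial sum was 13.9 to 16.9 CPM in lung and 28.5 to 31.3 in liver of subclone 2, without overlap, and 11.9 to 16.8 and 17.0 to 46.4 in subclone 13. Most of it was PECAM1 in these samples. The fibroblast sum was 25.3 to 49.4 CPM in tumours and 6.60 to 23.1 in lung and liver of the first experiment, most of it PDGFRB. The part of other cells in the values below was not tested, and in bulk samples fewer cells in S phase and less RNA per cell cannot be told apart.

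Levels per kilobase of exon (CPM per kb, mean of the 18 samples of the first experiment) ran from 0.420 to 112. PCNA was the highest, followed by MCM3 at 66.3, TK1, the thymidine kinase of the salvage pathway, at 63.5, MCM7 at 60.4, FEN1 at 36.9 and RRM1, the large subunit of ribonucleotide reductase, at 35.1. The members of the licensing ring differed: MCM4 stood at 16.2, MCM6 at 16.1, MCM5 at 11.4 and MCM2 at 9.72 CPM per kb. The lowest members were POLA2, the B subunit of polymerase alpha, and GINS3 at 1.14. POLA2 shares 35.1% of its exon bases with another gene on the same strand, RRM2 20.2% and PRIM1 16.2%, so their counts are uncertain. Exons of genes on the other strand cover 46.6% of TYMS, 37.1% of CCNE2, 23.6% of MCM2 and 23.6% of GINS4, and the library kit does not keep the strand.

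Members not taken up in full below are given by their range over the 18 samples. CDC45 ranged from 17.3 to 29.6 CPM, a narrow range beside that of MCM2 (21.5 to 83.5), and its log2 differences between organs lay between -0.21 and 0.05. RFC4, a clamp loader subunit, ranged from 23.4 to 50.7 CPM, TYMS, the thymidylate synthase, from 28.3 to 101, and MCM5 from 51.8 to 126. POLD1 ranged from 37.9 to 79.8 CPM and POLD3, an accessory subunit of polymerase delta, from 31.1 to 53.9. Wider ranges, as the highest value over the lowest, included those of ORC1 (4.26 to 17.99 CPM), RPA3 (8.67 to 36.9), GINS4 (12.9 to 83.5) and PRIM1 (2.59 to 19.9).

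**Figure D1:**
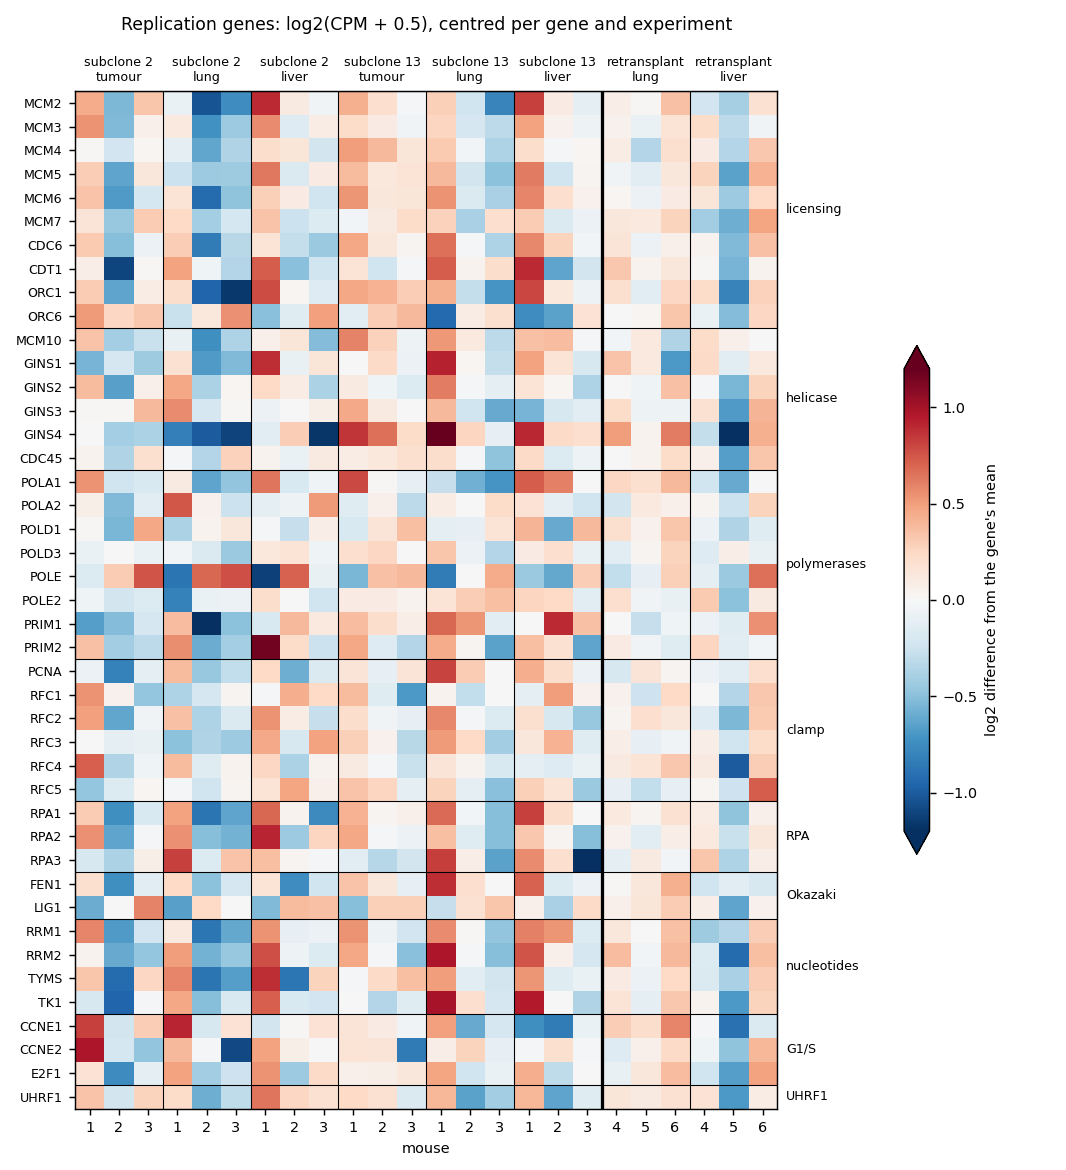
Each row is 1 of the 43 genes, ordered by role, and each column 1 sample, numbered by mouse within its group; colour is log2(CPM + 0.5) minus the gene's mean over the samples of its experiment. The columns of mouse 1 are mostly red, the subclone 2 lung columns of mice 2 and 3 mostly blue, and POLE, LIG1 and ORC6 run the other way in mouse 1.

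In the quasi-likelihood F test of edgeR without a mouse term, with p-values adjusted by Benjamini-Hochberg over all tested genes, 0 of 43 genes passed an adjusted p of 0.05 in any of 14 comparisons. Few genes of any kind passed. In subclone 2 the share of all tested genes was 0.436% for lung against tumour, 0.287% for liver against tumour and 0.023% for lung against liver. In subclone 13 it was 0.419%, 0.385% and 0% in the same order. Between the subclones it was 0.109% in tumour, 0.184% in lung and 0.247% in liver. The 3 tests of whether an organ difference differed between the subclones called 0% of genes, the retransplantation lung and liver samples 0%, and the test of that contrast between the experiments 0.00507%. At an unadjusted p under 0.05, 0, 1 and 2 of the 43 passed in the 3 organ comparisons of subclone 2, 1, 0 and 1 in those of subclone 13, and 1, 3 and 0 between the subclones in tumour, lung and liver. The 3 differences between subclones had 0, the retransplantation samples 4 and the difference between the experiments 3. In lung against tumour of subclone 2, 1623 of all 17418 tested genes passed that unadjusted threshold, beside 0 of 43 members. For the other comparisons the share of all genes is not given here, so no excess of members can be read from these counts. DESeq2 called 1 member, GINS4, between the subclones in lung, and 0 members in the other 13 comparisons. It called more genes of any kind: 359 of 17418 in lung against tumour of subclone 2, where edgeR called 76. Its share of all genes for lung between the subclones is not given here. The SE of a member's log2 fold change had a median of 0.32 in the first experiment and 0.23 in the retransplantation samples, so the precision of single genes was limited.

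Equal replicate numbers mark the same mouse, and a fit that adds mouse as a term (a replicate block) called 1 member in each of 4 comparisons. MCM2 fell in lung against liver of subclone 2, where that fit called 2.95% of all tested genes, a share near that of the members. POLA1 fell in lung against tumour of subclone 13 (2.89% of all genes) and in lung against liver of subclone 13 (0.276%). GINS4 rose in lung of subclone 13 against subclone 2 (1.54%). No member passed in the other comparisons with that fit. In those, 3.05% of all genes passed for lung and 1.68% for liver against tumour in subclone 2, 1.83% for liver against tumour in subclone 13, 0.505% between the subclones in tumour and 1.5% in liver. The shares were 0%, 0.00574% and 0% for the differences between the subclones in lung against tumour, liver against tumour and lung against liver, 0.479% for the retransplantation samples and 0.071% for the difference between the experiments. The values of both fits stand beside each other below.

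Lung metastases of subclone 2 held lower values of replication genes than its liver metastases in more genes than the reverse, with 0 members past the test without a mouse term and MCM2 past the test with one. In all 3 mice 21 of the 43 genes were lower in lung and 2 were higher. Over all tested genes, 19.1% were lower and 19.5% higher in all 3 mice. The median log2 difference of the 43 was -0.30 on the log2 scale, beside 0.01 over all tested genes, and 11 of 43 had a difference above 0. With mouse 1 left out 24 were lower in both remaining mice, beside 28.5% of all genes. The count was 23 with mouse 2 and 28 with mouse 3 left out, beside 29.4% and 27.4%. In subclone 13, 9 members were lower (19.8% of all genes) and 4 were higher in lung in all 3 mice (21.5%). Their median difference was 0.01, as over all genes (0.01). With mouse 1 left out 21 were lower in both other mice, beside 32.2% of all genes. The count was 13 with mouse 2 and 10 with mouse 3 left out, beside 27.4% and 27.5%, so a clear excess was seen only without mouse 1. Lower in lung than liver in every mouse and both subclones were MCM2, MCM3, MCM6, ORC1, RFC5, POLA1, RRM1 and UHRF1, and FEN1 was higher. The share of all genes that did so in both subclones was not counted. The summed endothelial markers, mostly PECAM1, were also lower in lung than liver in both subclones. CDH5 was instead higher in lung than liver in each mouse of subclone 13. The part of these markers in the members' values was not tested. As 1 set of mice supplied both subclones, the sets are not independent.

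Among the 10 licensing genes, MCM2 had the largest difference. MCM2 (chr3:127598223-127622436, plus strand, GRCh38) held 42.2, 21.5 and 26.5 CPM in the lung samples of mice 1, 2 and 3 in subclone 2 and 83.5, 48.3 and 43.6 in the liver samples. All 3 lung samples were below all 3 liver samples. Its log2 difference was -0.96 ± 0.36 (edgeR adjusted p = 0.381), and with mouse as a term it fell by 0.96 ± 0.22 on the log2 scale (edgeR adjusted p = 0.0251). The tumour samples held 61.1, 30.6 and 56.7 CPM, and mouse 2 alone was below the lung sample of mouse 1. Against them the lung difference was -0.72 ± 0.36 (edgeR adjusted p = 0.573). In subclone 13 MCM2 held 60.4, 51.7 and 44.4 CPM in tumour, 54.6, 37.9 and 25.6 in lung and 79.4, 47.8 and 41.2 in liver, again lowest in lung in each mouse, although the groups overlapped. The lung minus liver difference there was -0.51 ± 0.36 (edgeR adjusted p = 1.0), and the lung minus tumour difference -0.40 ± 0.36 (edgeR adjusted p = 0.965). The difference between the subclones in the lung minus liver difference was 0.45 ± 0.51 (95% interval -0.54 to 1.44; edgeR adjusted p = 1.0).

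ORC1, the ATPase of the origin recognition complex, had the same order of organs. It held 12.6, 6.37 and 10.8 CPM in tumour, 11.8, 4.999 and 4.26 in lung and 17.8, 10.3 and 9.05 in liver of subclone 2. In subclone 13 it held 14.1, 13.7 and 12.5, 13.7, 8.24 and 6.004 and 17.99, 11.1 and 9.72 CPM in those organs. The lung sample was the lowest of its mouse in each subclone, and the groups overlapped. Its log2 differences of lung from liver were -0.82 ± 0.43 (edgeR adjusted p = 0.583) and -0.47 ± 0.42 (edgeR adjusted p = 1.0). MCM3 differed by -0.51 ± 0.29 and -0.24 ± 0.29 and MCM6 by -0.41 ± 0.32 and -0.25 ± 0.32, with edgeR adjusted p of 0.647 or more. The median over the licensing genes was -0.41 in subclone 2 and -0.19 in subclone 13. ORC6, the smallest ORC subunit, went the other way (0.17 ± 0.35 and 0.21 ± 0.35), and CDC6 was near 0 in subclone 2 (-0.05 ± 0.32).

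POLA1, the catalytic subunit of polymerase alpha (chrX:24693919-24996986, plus strand), differed most in subclone 13. It held 33.7, 27.3 and 24.8 CPM in lung, 71.5, 41.4 and 38.2 in tumour and 68.01, 62.7 and 40.7 in liver of mice 1, 2 and 3. All 3 lung samples were below all tumour and all liver samples. Lung against liver gave -0.996 ± 0.32 (edgeR adjusted p = 0.805), and with mouse as a term POLA1 fell by 0.99 ± 0.18 (edgeR adjusted p = 0.0222). Lung against tumour gave -0.81 ± 0.32 (edgeR adjusted p = 0.454), and with mouse as a term POLA1 fell by 0.77 ± 0.18 (edgeR adjusted p = 0.0250). Both comparisons use the same lung samples. In subclone 2 the samples held 59.6, 34.5 and 36.1 CPM in tumour, 44.1, 26.3 and 29.3 in lung and 64.1, 36.1 and 39.4 in liver; lung was lowest in each mouse, and the groups overlapped. The log2 differences of lung there were -0.39 ± 0.32 from tumour and -0.49 ± 0.32 from liver. The other subunits of its complex did not share one direction: PRIM1, the catalytic primase subunit, had -0.56 ± 0.43 and -0.05 ± 0.43 for lung against liver, PRIM2, its partner, -0.56 ± 0.41 and -0.02 ± 0.41, and POLA2 0.12 ± 0.45 and 0.18 ± 0.46.

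Promoter sequences were available for 36 of the 43 genes in a RefSeq table (GRCh38.p14; 250 bases before to 50 after the start site, 47 windows). They were searched on both strands for the E2F words TTTCCCGC, TTTGGCGC, TTTCGCGC and TTTGCCGC, for the NF-Y word CCAAT and for the CHR word TTTGAA. The E2F words occurred in 20 of 47 windows (42.6%), beside 3.31% of all 35116 windows. By gene, 19 of 36 had an E2F word, among them 6 of 8 licensing genes and 4 of 7 polymerase genes. CCAAT was in 59.6% of member windows and 34.6% of all windows. TTTGAA was in 1 member window, of RRM1 (2.13%), beside 15.2% of all windows. Among 26 windows of 21 genes of G2 and mitosis, E2F words were in 15.4% and TTTGAA in 69.2%. A match is a run of letters, not a bound site, and overlapping matches were counted separately.

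The windows of MCM2, ORC1 and POLA1 are printed because these members had lower lung values than tumour and liver in every mouse, and those of MCM3 and MCM6 as licensing genes lower in lung than liver; capitals mark E2F words. MCM2 (chr3:127598161-127598460, plus strand) holds an overlapping pair of matches just after the start site. POLA1 (chrX:24693668-24693967, plus strand) holds 1 match, MCM3 (chr6:52284693-52284992, minus strand) 2 matches and MCM6 (chr2:135876394-135876693, minus strand) 4 matches in overlapping pairs. ORC1 (chr1:52404374-52404673, minus strand) holds 0 matches to these letters.
MCM2: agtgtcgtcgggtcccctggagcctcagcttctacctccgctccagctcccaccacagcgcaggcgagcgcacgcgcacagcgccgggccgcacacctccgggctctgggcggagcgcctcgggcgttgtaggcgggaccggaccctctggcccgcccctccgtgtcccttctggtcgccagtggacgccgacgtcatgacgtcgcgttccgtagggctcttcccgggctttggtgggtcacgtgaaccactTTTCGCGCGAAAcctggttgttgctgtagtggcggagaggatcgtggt
ORC1: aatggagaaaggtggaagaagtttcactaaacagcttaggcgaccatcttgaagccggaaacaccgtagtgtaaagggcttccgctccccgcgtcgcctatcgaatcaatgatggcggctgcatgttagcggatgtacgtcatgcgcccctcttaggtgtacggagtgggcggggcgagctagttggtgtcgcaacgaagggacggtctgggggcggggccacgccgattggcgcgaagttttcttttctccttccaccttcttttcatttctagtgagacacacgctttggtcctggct
POLA1: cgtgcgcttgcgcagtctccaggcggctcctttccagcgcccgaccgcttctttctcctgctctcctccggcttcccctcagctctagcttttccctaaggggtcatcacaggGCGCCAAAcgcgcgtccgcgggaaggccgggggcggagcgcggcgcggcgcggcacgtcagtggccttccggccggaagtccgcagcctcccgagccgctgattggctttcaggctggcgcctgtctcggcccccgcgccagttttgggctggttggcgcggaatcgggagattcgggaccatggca
MCM3: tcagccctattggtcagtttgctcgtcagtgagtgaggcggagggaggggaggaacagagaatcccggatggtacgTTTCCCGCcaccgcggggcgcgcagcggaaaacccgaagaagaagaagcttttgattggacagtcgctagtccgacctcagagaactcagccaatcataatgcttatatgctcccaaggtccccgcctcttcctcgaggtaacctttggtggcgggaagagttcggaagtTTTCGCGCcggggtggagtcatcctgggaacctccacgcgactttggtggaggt
MCM6: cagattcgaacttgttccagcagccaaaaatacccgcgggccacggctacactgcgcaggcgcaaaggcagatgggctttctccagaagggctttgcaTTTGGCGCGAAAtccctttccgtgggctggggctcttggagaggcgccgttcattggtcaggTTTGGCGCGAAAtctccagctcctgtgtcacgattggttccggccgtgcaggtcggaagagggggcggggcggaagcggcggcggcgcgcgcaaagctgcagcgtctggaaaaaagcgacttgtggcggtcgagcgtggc
The 5 genes were chosen for their lung values, and no relation between the letters and those values was tested.

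**Figure D2:**
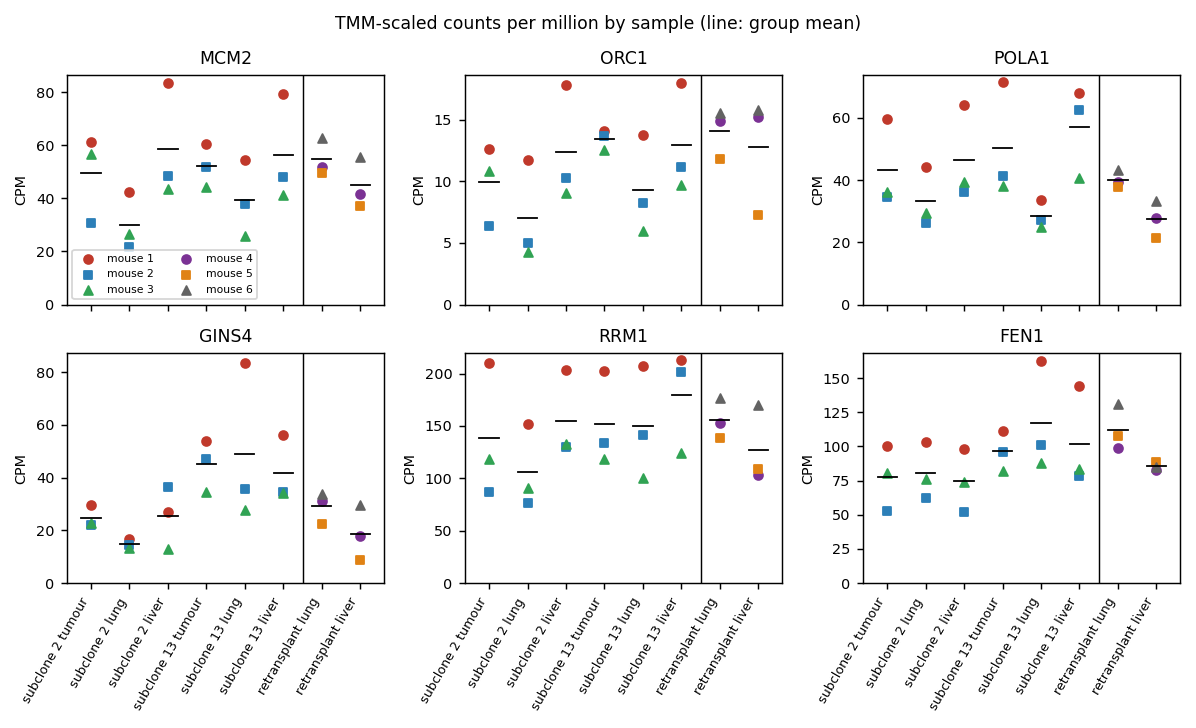
Each panel plots the TMM-scaled CPM of 1 gene (axis from 0) in all 24 samples by group, with a symbol per mouse and a line at the group mean. MCM2, ORC1 and POLA1 are lowest in the lung groups of the first experiment, GINS4 separates the subclones in lung, and mouse 1 is the highest in most groups.

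In the other roles, RFC3 had the smallest unadjusted p of the 43 genes for lung against liver in subclone 2. RFC3, a subunit of the clamp loader, held 18.1, 19.8 and 18.8 CPM in lung and 35.3, 22.3 and 35.98 in liver of subclone 2, with all lung samples below all liver samples. Its log2 difference was -0.72 ± 0.27 (edgeR adjusted p = 0.368), and in subclone 13 it was 0.01 ± 0.26 (edgeR adjusted p = 1.0). Within the clamp group RFC2 held 73.6, 48.5 and 43.96 CPM in lung and 56.2, 42.9 and 35.7 in liver of subclone 13 (0.30 ± 0.31, edgeR adjusted p = 1.0); lung was higher in each mouse and the groups overlapped. RPA2, the middle subunit of RPA, held 61.5, 29.2 and 28.1 CPM in lung and 79.3, 30.8 and 50.3 in liver of subclone 2 (-0.43 ± 0.39, edgeR adjusted p = 0.821). RPA1, the large subunit, held 226, 138 and 99.4 CPM in lung and 249.6, 164 and 142 in liver of subclone 13 (-0.26 ± 0.41, edgeR adjusted p = 1.0). Both were lower in lung in each mouse, with overlap between the groups.

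RRM1 held 151, 76.3 and 90.97 CPM in lung and 203, 129.9 and 133 in liver of subclone 2 (-0.55 ± 0.37, edgeR adjusted p = 0.712). In subclone 13 it held 207, 141 and 101 and 213, 201 and 124 CPM (-0.26 ± 0.36, edgeR adjusted p = 1.0). Lung was the lower organ in each mouse, by little in mouse 1 of subclone 13. UHRF1 held 80.7, 46.02 and 56.01 CPM in lung and 109, 82.2 and 78.9 in liver of subclone 2 (-0.56 ± 0.31, edgeR adjusted p = 0.619), and 91.4, 44.1 and 51.9 and 91.7, 44.5 and 62.5 in subclone 13 (-0.08 ± 0.31, edgeR adjusted p = 1.0). RFC5, another clamp loader subunit, differed by -0.32 ± 0.25 and -0.12 ± 0.25. FEN1, the flap endonuclease, was the one gene higher in lung in every mouse of both subclones. It held 103, 62.2 and 75.98 against 98.1, 52.2 and 74.3 CPM in subclone 2 and 163, 101 and 87.5 against 144, 78.4 and 83.4 in subclone 13, with log2 differences of 0.10 ± 0.32 (edgeR adjusted p = 0.963) and 0.20 ± 0.32 (edgeR adjusted p = 1.0). LIG1, the ligase that seals the fragments, held 49.99, 93.3 and 79.3 CPM in lung and 54.4, 103 and 101 in liver of subclone 2 (-0.21 ± 0.34, edgeR adjusted p = 0.920).

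In the helicase group GINS1 held 23.1, 12.4 and 13.8 CPM in lung and 37.8, 19.03 and 22.4 in liver of subclone 2 (-0.68 ± 0.34, edgeR adjusted p = 0.565), lower in lung in each mouse. GINS2 held 20.2, 12.8 and 11.9 and 14.6, 13.2 and 9.92 CPM in subclone 13 (0.26 ± 0.32, edgeR adjusted p = 1.0), and its groups overlapped. CCNE1, cyclin E1, which drives entry into S phase with CDK2, had a positive difference in both subclones: it held 14.996, 6.72 and 8.76 against 6.54, 7.83 and 8.79 CPM in subclone 2 (0.39 ± 0.39, edgeR adjusted p = 0.847) and 11.1, 4.91 and 6.67 against 4.44, 4.11 and 7.29 in subclone 13 (0.53 ± 0.39, edgeR adjusted p = 1.0). The lung value was the lower one in mice 2 and 3 of subclone 2 and in mouse 3 of subclone 13. The remaining members lower in lung in all 3 mice of subclone 2 were MCM4, MCM5, MCM7, RFC1, POLD3, PRIM2, TYMS and CCNE2.

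**Figure D3:**
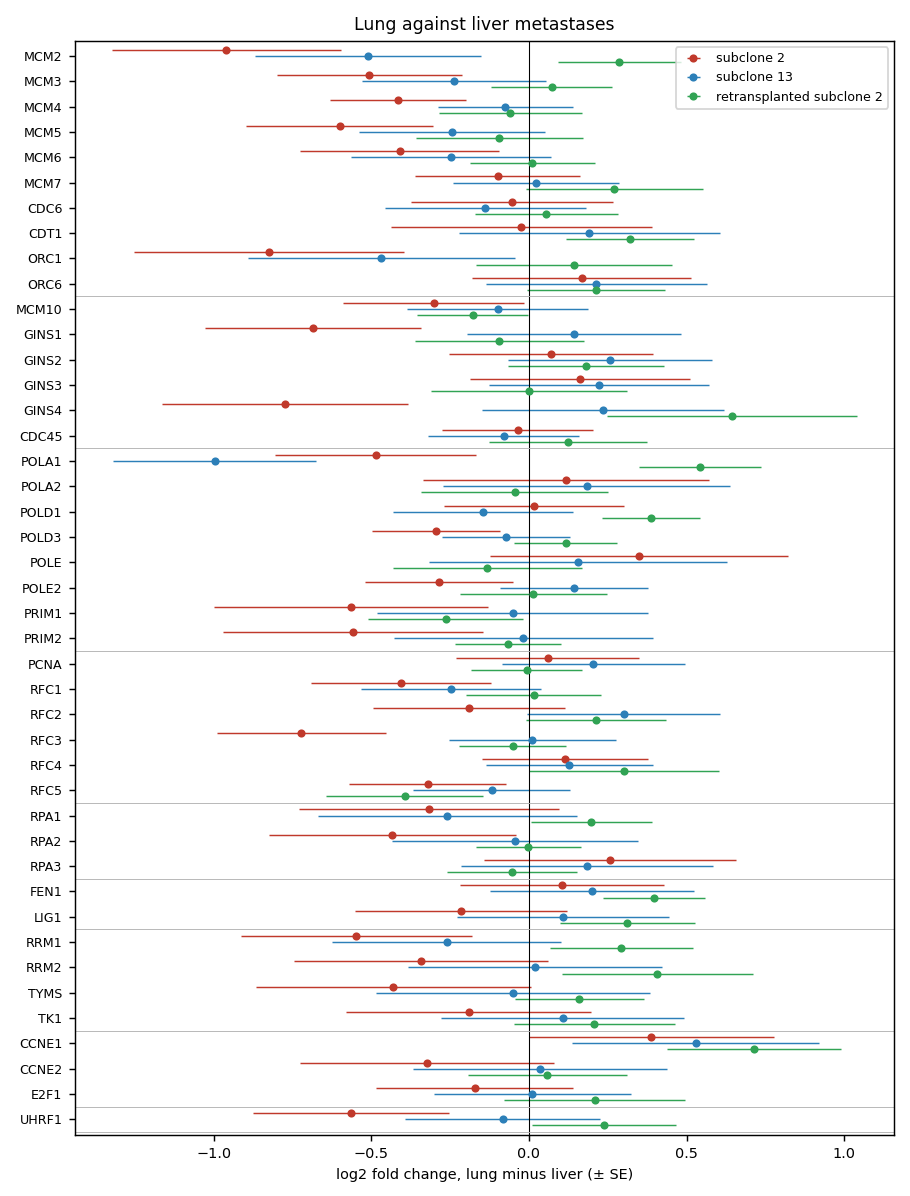
Points are log2 fold changes of lung minus liver for each of the 43 genes, with bars of 1 SE, in subclone 2, subclone 13 and retransplanted subclone 2. Most subclone 2 points lie left of 0 (11 of 43 above 0) and most retransplantation points right of it (30 of 43), and the bars of most genes overlap between the 3.

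Against primary tumours, 0 members passed the test in lung metastases of either subclone without a mouse term, and POLA1 in subclone 13 passed with one. In subclone 2, 12 members were lower (18% of all tested genes) and 2, RPA3 and RRM2, were higher in all 3 mice (20.1%). The median log2 difference was -0.13, beside 0.05 over all genes. In subclone 13, 9 were lower (21.4%) and 5 were higher in all 3 mice (20.5%), with a median of -0.04, beside 0.03. As shares of the 43 members, 27.9% were lower and 4.65% higher in subclone 2, and 20.9% lower and 11.6% higher in subclone 13. Only the share lower in subclone 13 was near that of all genes. In subclone 2, 18 members were lower without mouse 1 and 17 without mouse 2, beside 27.9% and 25.9% of all genes. With mouse 3 left out, 14 were lower and 13 higher, beside 27.6% and 34.4%, so little excess of lower members was seen without that mouse. With mouse 1 left out, 24 members of subclone 13 were lower in both other mice, beside 33% of all genes. The count was 10 with mouse 2 and 11 with mouse 3 left out, beside 27% and 30.5%, so an excess was seen only without mouse 1. The licensing genes had medians of -0.26 and -0.26, with 1 of 10 above 0 in each subclone. In subclone 13 the mice differed: 6 of 10 licensing genes were higher in lung in mouse 1 and 1 of 10 in mice 2 and 3, and CDT1 was higher in all 3 mice. Of the 43 genes, MCM2, MCM4, MCM10, ORC1 and POLA1 were lower in every mouse of both subclones, and the share of all genes that did so was not counted. MCM4, a ring subunit, held 138, 108 and 85.2 CPM in lung and 157, 145 and 123 in tumour of subclone 13 (-0.36 ± 0.22, edgeR adjusted p = 0.826), and MCM10, the activation factor, differed by -0.31 ± 0.29 and -0.15 ± 0.29.

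GINS4, the SLD5 subunit of GINS, held 16.6, 14.6 and 13.4 CPM in lung and 29.7, 22.2 and 22.7 in tumour of subclone 2, with no overlap (-0.74 ± 0.39, edgeR adjusted p = 0.609). RPA3, the small RPA subunit, was higher in lung in subclone 2, with 36.6, 18.3 and 26.3 CPM against 17.96, 15.7 and 21.6 (0.55 ± 0.40, edgeR adjusted p = 0.768). In subclone 13 it held 36.9, 21.7 and 12.97 against 18.8, 16.1 and 17.6 (0.45 ± 0.40, edgeR adjusted p = 0.963), and mouse 3 went the other way. TK1 held 222, 128 and 96.4 CPM in lung and 111, 87.3 and 100.2 in tumour of subclone 13 (0.58 ± 0.39, edgeR adjusted p = 0.877), PCNA 280.3, 198 and 159 and 178, 149 and 178 (0.33 ± 0.29, edgeR adjusted p = 0.959), and GINS3 7.57, 4.72 and 3.56 and 7.94, 6.15 and 5.65 (-0.31 ± 0.35, edgeR adjusted p = 1.0). GINS3 was lower in lung in each mouse, TK1 and PCNA were higher in mice 1 and 2. CCNE2, cyclin E2, held 20.2, 15.1 and 6.96 CPM in lung and 30.5, 13.1 and 10.9 in tumour of subclone 2 (-0.36 ± 0.40, edgeR adjusted p = 0.878), with overlap. RFC3 differed by -0.37 ± 0.27 and UHRF1 by -0.34 ± 0.31 there, RRM1 by -0.38 ± 0.36 and LIG1 by -0.17 ± 0.34.

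In liver metastases of subclone 2 more members were above the tumour values than below them (32 of 43 above 0), and in subclone 13 there was no excess (22 of 43 above 0); no member passed either test. In subclone 2, 11 members were higher (15.9% of all genes) and 2 were lower in all 3 mice (14%), with a median of 0.15 beside 0.05 over all genes. In subclone 13, 2 were higher, RRM1 and RRM2 (13.9%), and 7 were lower (17.9%), with a median of 0.00 beside 0.02. With mouse 2 left out, 12 members of subclone 2 were higher and 11 lower in both other mice, beside 26.9% and 24% of all genes, so the excess of higher members was not seen without that mouse. The difference between the subclones had a median of -0.15, beside -0.03 over all genes, and 0 members passed (edgeR; 0 at an unadjusted p under 0.05). The largest difference from tumour in liver of subclone 2 was that of GINS1, with 37.8, 19.03 and 22.4 CPM in liver and 13.6, 17.6 and 14.9 in tumour and no overlap (0.78 ± 0.34, edgeR adjusted p = 0.674). RRM2, the small reductase subunit, held 111, 61.8 and 57.6 CPM in liver and 66.4, 42.2 and 46.7 in tumour (0.57 ± 0.40, edgeR adjusted p = 0.969), PRIM2 79.02, 40.8 and 29.1 and 44.9, 26.1 and 28.02 (0.59 ± 0.41, edgeR adjusted p = 0.966), and RFC5 41.2, 51.2 and 38.3 and 26.4, 32.7 and 37.4 (0.44 ± 0.25, edgeR adjusted p = 0.892). Each was higher in liver in every mouse, and RFC5 did not overlap. E2F1, the activator of S phase genes, held 95.1, 47.97 and 76.4 and 73.7, 38.4 and 60.02 CPM (0.35 ± 0.31, edgeR adjusted p = 1.0), and RPA2 differed by 0.31 ± 0.39.

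In subclone 13 the genes lower in liver than tumour included ORC6, with 11.7, 12.6 and 22.5 against 18.2, 24.6 and 26.3 CPM (-0.56 ± 0.35, edgeR adjusted p = 1.0). CCNE1 held 4.44, 4.11 and 7.29 against 8.63, 8.30 and 7.48 CPM, with no overlap (-0.63 ± 0.39, edgeR adjusted p = 1.0), and GINS3 3.69, 4.90 and 5.12 against 7.94, 6.15 and 5.65 (-0.53 ± 0.35, edgeR adjusted p = 1.0). Both were lower in liver in each mouse, as was ORC6. TK1 differed by 0.48 ± 0.39 (edgeR adjusted p = 1.0), RFC1, the large clamp loader subunit, by 0.26 ± 0.28 (edgeR adjusted p = 1.0), POLE by -0.32 ± 0.47 (edgeR adjusted p = 1.0) and RPA3 by 0.27 ± 0.40 (edgeR adjusted p = 1.0). In the liver of subclone 2, ORC6 differed from tumour by -0.37 ± 0.35, CCNE1 by -0.38 ± 0.39 and GINS3 by -0.16 ± 0.35.

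GINS4 was the member that differed most between the subclones in lung, where it was higher in subclone 13. In tumours 16 of 43 members were higher (25.1% of all genes) and 1 was lower, RFC1 (16.2%), in all 3 mice. In lung 17 were higher (19.9%) and 3 lower (17.3%), and in liver 10 were higher (16.7%) and 8 lower (15%). The medians were 0.16, 0.21 and -0.04, beside 0.02, 0.00 and 0.00 over all genes. With mouse 2 left out, 16 members were higher and 15 lower in both other tumour pairs, beside 33.7% and 25.7% of all genes, so the excess in tumour was not seen without that mouse. Higher in every mouse in all 3 organs were MCM6, MCM10, PCNA, ORC1, POLE2, PRIM1, RPA1 and FEN1. The share of all genes that met this joint rule was not counted, so an excess of members cannot be read from it.

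GINS4 (chr8:41529206-41545046, plus strand) held 83.5, 35.6 and 27.6 CPM in lung of subclone 13 and 16.6, 14.6 and 13.4 in lung of subclone 2. All subclone 13 samples were above all subclone 2 samples. Its log2 difference was 1.72 ± 0.40 (95% interval 0.94 to 2.50; edgeR adjusted p = 0.0942). With mouse as a term it rose by 1.61 ± 0.28 (edgeR adjusted p = 0.00625), and it rose in DESeq2 too (adjusted p = 0.00378). Without a filter on low counts edgeR gave an adjusted p of 4.85e-05. Other settings did not pass: edgeR gave an adjusted p of 0.0877 with RLE scaling and 0.236 with only the compared groups. Leaving out the subclone 2 lung sample of mouse 1, 2 or 3 gave differences of 1.81, 1.72 and 1.63 (edgeR adjusted p = 0.199, 0.352 and 0.336). In tumour the values were 54.1, 47.1 and 34.6 against 29.7, 22.2 and 22.7 CPM, without overlap (0.86 ± 0.39, edgeR adjusted p = 1.0). In liver they were 56.01, 34.7 and 34.2 against 27.1, 36.4 and 12.9, with mouse 2 of subclone 2 above mouse 2 of subclone 13 (0.71 ± 0.39, edgeR adjusted p = 0.805). Without the subclone 13 lung sample of mouse 1 the difference was 1.11 (edgeR adjusted p = 0.622), so its size rests in part on that sample. The other GINS genes had smaller differences in lung: GINS1 differed by 0.63 ± 0.34, GINS2 by 0.14 ± 0.32 and GINS3 by -0.26 ± 0.35. The genes beside GINS4 on the chromosome differed less: GOLGA7 by 0.51 ± 0.24 and GPAT4 by 0.00 ± 0.19 in lung.

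Among other roles in lung, POLE2, a subunit of polymerase epsilon, held 21.8, 23.9 and 25.1 CPM in subclone 13 and 10.9, 18.3 and 18.4 in subclone 2, without overlap (0.57 ± 0.24, edgeR adjusted p = 0.578). RFC3 held 36.8, 30.2 and 19.05 and 18.1, 19.8 and 18.8 (0.60 ± 0.27, edgeR adjusted p = 0.651), FEN1 163, 101 and 87.5 and 103, 62.2 and 75.98 (0.54 ± 0.32, edgeR adjusted p = 0.861), and RRM1 207, 141 and 101 and 151, 76.3 and 90.97 (0.50 ± 0.37, edgeR adjusted p = 0.966). All were higher in subclone 13 in each mouse. MCM4 differed by 0.35 ± 0.22 (edgeR adjusted p = 0.875), RPA1 by 0.34 ± 0.41 (edgeR adjusted p = 1.0) and UHRF1 by 0.04 ± 0.31 (edgeR adjusted p = 1.0). In tumour PRIM1 held 13.6, 12.2 and 11.1 CPM in subclone 13 and 6.44, 7.13 and 9.01 in subclone 2, without overlap (0.71 ± 0.43, edgeR adjusted p = 1.0), and MCM4 157, 145 and 123 and 112, 94.1 and 113, also without overlap (0.42 ± 0.22, edgeR adjusted p = 1.0). RFC5 differed by 0.37 ± 0.25, RRM2 by 0.35 ± 0.40, RPA1 by 0.33 ± 0.41 and FEN1 by 0.31 ± 0.32 in tumour.

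In liver CDC6, the loading ATPase, held 76.4, 61.3 and 49.9 CPM in subclone 13 and 57.1, 41.7 and 37.2 in subclone 2 (0.47 ± 0.32, edgeR adjusted p = 0.941), and PCNA 216, 185 and 152 and 189, 106 and 141 (0.34 ± 0.29, edgeR adjusted p = 0.989), both higher in each mouse. UHRF1 held 91.7, 44.5 and 62.5 and 109, 82.2 and 78.9 (-0.44 ± 0.31, edgeR adjusted p = 0.951), CCNE1 4.44, 4.11 and 7.29 and 6.54, 7.83 and 8.79 (-0.55 ± 0.39, edgeR adjusted p = 0.952), and PRIM2 45.3, 39.9 and 22.4 and 79.02, 40.8 and 29.1 (-0.46 ± 0.41, edgeR adjusted p = 0.994), all lower in each mouse. RPA2 differed by -0.36 ± 0.39, FEN1 by 0.45 ± 0.32 and RRM1 by 0.21 ± 0.36. The organ differences themselves were not called different between the subclones: the members' medians were 0.07 for lung against tumour and 0.22 for lung against liver, beside -0.03 and 0.01 over all genes. The smallest edgeR adjusted p of a member in these tests was 1.0. The difference had an SE with a median of 0.46, so the intervals were wide.

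In the retransplantation experiment the members were more often higher in lung than in liver, where those of subclone 2 in the first experiment were more often lower; no member passed the test of that difference. In all 3 mice 14 of 43 were higher in lung (20.2% of all genes) and 2 were lower, MCM4 and RFC5 (20.6%). The median log2 difference was 0.12, beside -0.03 over all genes, and 30 of 43 were above 0. The per-sample medians of the 43 genes, relative to each gene's mean over the experiment, were 0.08, 0.03 and 0.22 in lung and 0.02, -0.48 and 0.26 in liver of mice 4, 5 and 6. The liver sample of mouse 5 was thus the low one. With mouse 5 left out, 15 members were higher and 16 lower in lung in both other mice, beside 30.7% and 30.2% of all genes, so the excess of higher members was not seen without that mouse.

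POLA1 was the member with the smallest p: it held 39.3, 37.7 and 43.3 CPM in lung and 27.9, 21.5 and 33.1 in liver of mice 4, 5 and 6, without overlap (0.54 ± 0.19, edgeR adjusted p = 0.315). FEN1 held 98.5, 107 and 131 and 82.5, 88.5 and 85.1 CPM, also without overlap (0.40 ± 0.16, edgeR adjusted p = 0.376), and CCNE1 15.1, 14.2 and 18.6 and 12.1, 6.35 and 10.8, without overlap (0.71 ± 0.28, edgeR adjusted p = 0.346). FEN1 was higher in lung in all 9 pairs of samples from both experiments. GINS4 held 31.1, 22.6 and 33.7 and 17.9, 8.60 and 29.5 CPM (0.64 ± 0.40, edgeR adjusted p = 0.543), and MCM2 51.8, 49.5 and 62.8 and 41.7, 37.1 and 55.7 (0.29 ± 0.19, edgeR adjusted p = 0.577). CDT1, which loads the MCM ring, held 43.4, 35.7 and 37.9 and 34.9, 23.3 and 35.5 CPM (0.32 ± 0.20, edgeR adjusted p = 0.551), and RRM2 92.1, 69.4 and 93.3 and 63.5, 37.3 and 91.3 (0.41 ± 0.30, edgeR adjusted p = 0.614). All 4 were higher in lung in each mouse. RFC5 was lower in lung in each mouse, with 56.3, 48.9 and 56.1 and 61.3, 50.7 and 99.8 CPM (-0.39 ± 0.25, edgeR adjusted p = 0.552). UHRF1 differed by 0.24 ± 0.23 and RPA1 by 0.20 ± 0.19. The retransplantation difference minus that of the first experiment had a median of 0.40 over the members, beside -0.01 over all genes, with 37 of 43 above 0. It was 1.26 ± 0.46 for MCM2 (95% interval 0.37 to 2.16; edgeR adjusted p = 0.620; edgeR adjusted p = 0.0919 with mouse as a term) and 1.04 ± 0.40 for POLA1 (edgeR adjusted p = 0.677; edgeR adjusted p = 0.0966 with mouse as a term). The experiments differ in mice and sequencing run, which cannot be told apart from the retransplantation.

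Mouse 1 held the highest values of most members, whichever the organ or subclone. The per-sample medians of mice 1, 2 and 3 were 0.20, -0.45 and -0.04 in tumour, 0.22, -0.44 and -0.33 in lung and 0.28, -0.01 and -0.04 in liver of subclone 2. In subclone 13 they were 0.22, 0.11 and -0.02, 0.42, -0.02 and -0.28 and 0.36, 0.05 and -0.07. Mouse 1 was the highest in each of the 6 groups. Averaged over the groups, the 43 genes stood a median of 0.51 above the mean of mice 2 and 3 on the log2 scale, 38 of 43 above 0, beside -0.04 over all 17418 tested genes. In at least 5 of 6 groups mouse 1 was highest for 25 of 43 members (58.1%), beside 18.9% of all tested genes. RRM2 stood 0.88 above the other mice, RPA1 0.85, PRIM2 0.84, RPA2 0.79, CDT1 0.77 and ORC1 0.75. With 1 mouse against 2 mice no test of this was made.

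A few members went the other way in mouse 1. POLE, the catalytic subunit of polymerase epsilon, held 89.2, 123 and 169 CPM in tumour, 54.3, 161 and 171 in lung and 45.7, 164 and 93.9 in liver of subclone 2, and 68.2, 128 and 131, 55.7, 99.6 and 136 and 73.5, 65.1 and 123 in subclone 13. Mouse 1 was lowest in 5 of these 6 groups, with a mean difference of -0.999. LIG1 (-0.63) and ORC6 (-0.52) were likewise lowest in mouse 1 in 5 of 6 groups. POLE2, which binds POLE, had no such difference (-0.03), nor had POLD1, the catalytic subunit of polymerase delta (-0.07). The genes of G2 and mitosis were also higher in mouse 1 (median 0.55, 23 of 26 above 0), the 22 tested genes of G1/S control by 0.37 and the 35 other replication genes by 0.11.

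**Figure D4:**
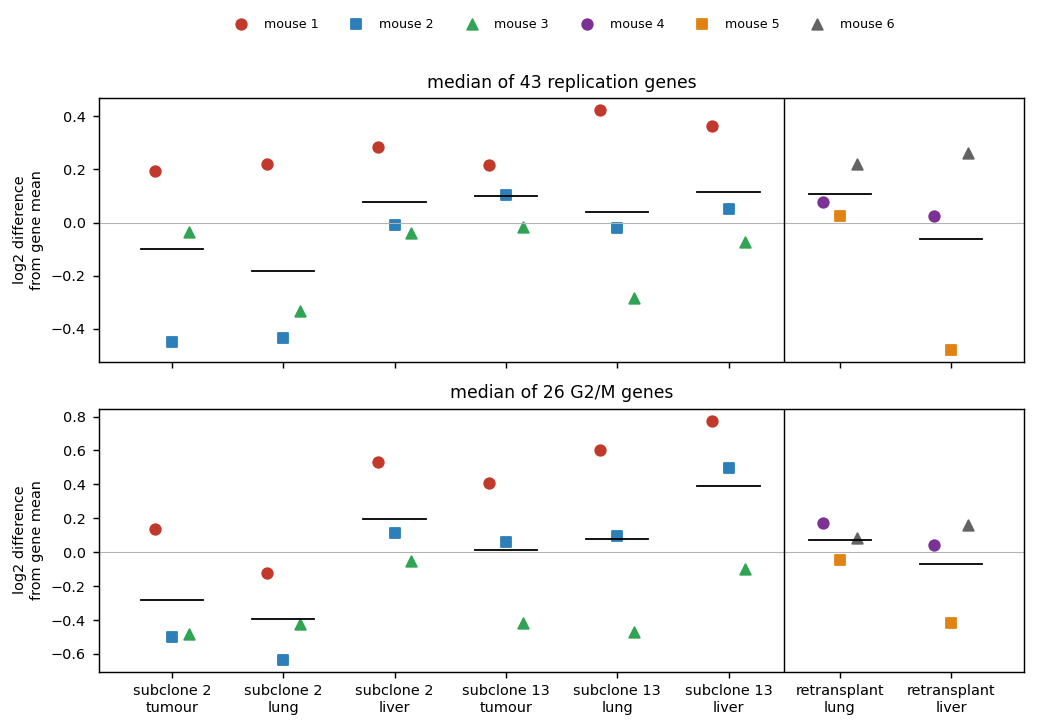
Each point is the median over the 43 replication genes (upper panel) or 26 genes of G2 and mitosis (lower panel) in 1 sample, as the log2 difference from each gene's mean over its experiment; lines are group means. Mouse 1 is the top point in all 6 groups of the first experiment in both panels, and the liver sample of mouse 5 is the lowest of the retransplantation samples at -0.48 and -0.42.

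All subclone 2 samples of mouse 1 came from sequencing run 1, those of mouse 2 from run 2 and those of mouse 3 from run 3, so mouse and run cannot be told apart there. Genes with at least 1 count numbered 16441 to 17971 in the subclone 2 libraries of mouse 1 and 20417 to 25527 in those of mice 2 and 3. In liver of subclone 13 they numbered 16596 to 18544 in the libraries of mouse 1 and 22290 and 24035 in mice 3 and 2. The part of this in the values was not tested. For subclone 13 mouse 1 was sequenced in all 3 runs. The comparison of runs uses CPM per total counts of the library, without TMM scaling. Its libraries of runs 1, 2 and 3 stood a median of 0.39, 0.42 and 0.43 above the mean of mice 2 and 3 in lung, 0.10, 0.14 and 0.15 in tumour, and 0.17, 0.21 and 0.20 in liver. Over all tested genes these medians were -0.16, -0.14 and -0.15 in lung, -0.09, -0.08 and -0.09 in tumour, and -0.22, -0.22 and -0.24 in liver. Set against the mouse sequenced in the same run, the lung medians were 0.29 in run 2 and 0.54 in run 3, those of liver 0.14 and 0.26, and those of tumour 0.00 and 0.27. In lung and liver of subclone 13 mouse 1 was above the other mouse of the same run, the liver libraries with fewer genes detected as given above. In tumour it was above in run 3 and not in run 2. Each of these same-run values sets 1 mouse against 1 other, without a value over all genes beside it. The part of run and of mouse was not tested. Over the 3 libraries of mouse 1 the highest value of a member was a median of 1.09 times the lowest in tumour, 1.13 times in lung and 1.15 times in liver.

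**Figure D5:**
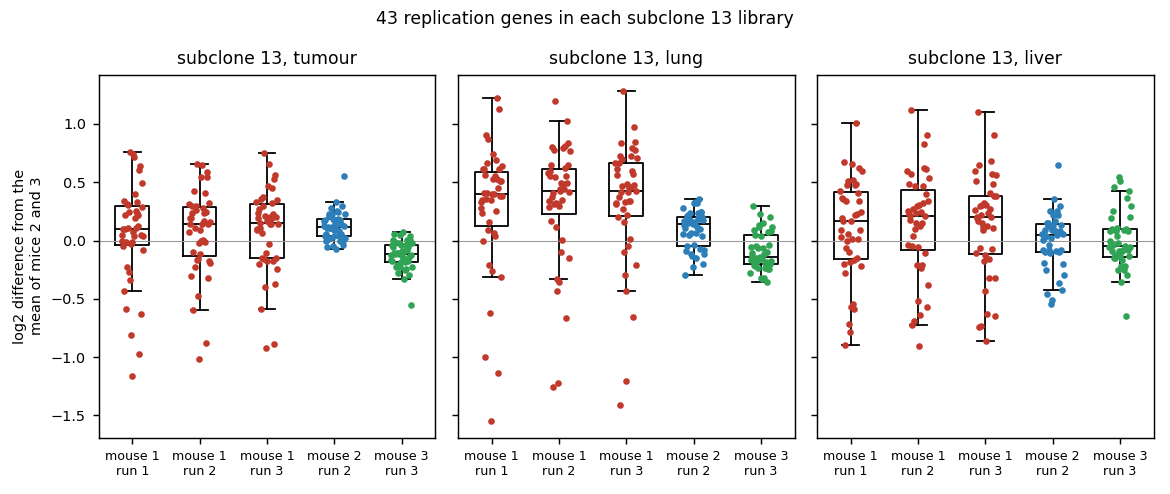
For each subclone 13 organ the 43 genes are points in every library, as the log2 difference from the mean of mice 2 and 3. Values are CPM per total counts of the library, without TMM scaling. Boxes show the median and quartiles, and labels give mouse and sequencing run. The 3 libraries of mouse 1 lie at like heights in each organ, with lung medians of 0.39, 0.42 and 0.43.

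Other genes of the pathway were read from lists of 35 further replication genes, 22 tested G1/S control genes and 26 genes of G2 and mitosis. In the test without a mouse term 0 members of the 3 lists passed in any comparison. E2F7, a repressor of the E2F program, held 76.8, 72.4 and 64.8 CPM in lung, 95.7, 85.6 and 84.3 in liver and 134, 123 and 199.8 in tumour of subclone 2. In subclone 13 it held 61.3, 70.5 and 81.6, 59.8, 64.9 and 62.1 and 122, 89.2 and 170.3 CPM. All lung and liver samples were below all tumour samples in both subclones. Lung against tumour gave -1.10 ± 0.24 (edgeR adjusted p = 0.0522) and -0.84 ± 0.24 (edgeR adjusted p = 0.173), and liver against tumour gave -1.03 ± 0.24 (edgeR adjusted p = 0.0782) in subclone 13. In the liver of subclone 2 the difference from tumour was -0.79 ± 0.24 (edgeR adjusted p = 0.284), and it did not pass with mouse as a term either (edgeR adjusted p = 0.0625). With mouse as a term E2F7 fell in the other 3 comparisons (edgeR adjusted p = 0.00618, 0.0328 and 0.0121).

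In lung against liver of subclone 2 the genes of G2 and mitosis had a median of -0.59, with 0 of 26 above 0. With mouse as a term 4 of the 26 fell, where that fit called 2.95% of all tested genes. TOP2A, the topoisomerase of dividing cells, held 209, 125 and 144 CPM in lung and 487, 379 and 312 in liver, without overlap (-1.30 ± 0.44, edgeR adjusted p = 0.322; edgeR adjusted p = 0.00666 with mouse as a term). BUB1 and TTK, kinases of the spindle checkpoint, and TPX2, a spindle factor, were the others (edgeR adjusted p = 0.0123, 0.0393 and 0.0182 with mouse as a term). Of the G1/S control genes RBL1, an E2F-binding pocket protein, and CCNA2, cyclin A2, fell in that comparison with mouse as a term (edgeR adjusted p = 0.0113 and 0.0424). The genes of G2 and mitosis had a median of -0.28 in subclone 13, 0.12 in the retransplantation samples, and 0.50 and 0.45 for liver against tumour in subclones 2 and 13, where TTK rose in subclone 2 with mouse as a term (edgeR adjusted p = 0.0455). The other replication genes had medians of -0.16 and 0.01 for lung against liver and no call with either fit in organ comparisons. Between the subclones in lung, with mouse as a term, TIPIN, a fork protection factor, rose (0.95 ± 0.24; edgeR adjusted p = 0.0490) and RECQL4, a helicase of replication initiation, fell by 1.001 ± 0.21 (edgeR adjusted p = 0.0190), as it did in liver (edgeR adjusted p = 0.0243). CDKN2D fell in that lung comparison (edgeR adjusted p = 0.0344) and CDKN1C, both of them CDK inhibitors, rose in lung against tumour of subclone 13 (edgeR adjusted p = 0.0184).

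For the 13 mitochondrially encoded genes, 8 of 13 rose in lung against tumour in each subclone without a mouse term. Of all tested genes 0.436% and 0.419% passed there in subclones 2 and 13. The median difference of the 13 was 1.17 for lung against liver in subclone 2 and 1.34 in subclone 13. With mouse as a term 12 and 10 of 13 rose there, beside 2.95% and 0.276% of all genes called, and 0 passed without it. In the retransplantation samples their median for lung against liver was 0.59, with 13 of 13 above 0 and 0 passing either fit. There the replication genes were more often higher in lung. Mitochondrial transcripts take up a share of the counts, and their part in the lung values of the members was not tested in either experiment. With RLE in place of TMM scaling, 18 members of subclone 2 and 8 of subclone 13 were lower in lung than liver in all 3 mice, beside 17.2% and 17.9% of all tested genes.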

How the data were processed

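Gene read counts were deposited by the authors in 2 tables, 24 libraries of the first experiment and 6 of the retransplantation experiment. The submitters' processing notes name bcl2fastq 2.15.0.4, cutadapt, STAR, featureCounts and GRCh38; how mouse reads were separated and which annotation was used are not given in the sources used here. The 3 libraries of each mouse 1 sample of subclone 13 were summed, which left 18 samples. Gene identifiers were matched to symbols for 40625 of 40950.

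Genes were filtered with filterByExpr, scaled by TMM and tested in edgeR 4.0.16 (R 4.3.3) by the quasi-likelihood F test over all groups of an experiment, with Benjamini-Hochberg adjustment over all tested genes and a threshold of 0.05. The SE was taken as the absolute log2 value over the root of the F statistic, and intervals are 1.96 SE either side. CPM values are TMM-scaled, except in the comparison of runs, which uses CPM per total counts of the library. The heat map and sample medians use log2(CPM + 0.5). The code was tested on simulated data. Alternatives were DESeq2 1.42.0, RLE scaling, no filter, only the compared groups, leaving out samples, and the mouse as a block. Counting intervals were not used, since the spread between mice sets the error.

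The labels give same-numbered samples the same mouse. Deviations from group means correlated with a median r of 0.41 over 45 same-mouse pairs (lowest 0.0758) and -0.29 over 90 other pairs, and 0.32 over 3 pairs in the retransplantation samples. The biological coefficient of variation was 0.476 without and 0.330 with the block, and 0.296 and 0.227 in the retransplantation samples.

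The members and gene lists were chosen with earlier results of these data known. Named genes are, in each comparison, members called by a test and the smallest p of each role; genes higher or lower in all 3 mice, the comparison of runs and the RLE counts were added after seeing the data. Gene positions, lengths and overlaps are from GENCODE v29 and promoters from RefSeq.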

Additional observations from a re-analysis of the deposited data

Results flagged for a closer look

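MCM2, POLA1, RRM1 and RRM2 were lower in lung than liver in all 3 mice of subclone 2 in the first experiment and higher in all 3 mice of the retransplantation experiment. The retransplantation difference minus the first was 1.26 ± 0.46 for MCM2 (edgeR adjusted p = 0.620; 0.0919 with mouse as a term) and 1.04 ± 0.40 for POLA1 (edgeR adjusted p = 0.677; 0.0966 with mouse as a term). It was 0.859 ± 0.47 for RRM1 (edgeR adjusted p = 0.861) and 0.763 ± 0.55 for RRM2 (edgeR adjusted p = 0.916). None passed the threshold, and the share of all genes with opposite directions in the experiments was not counted.

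RFC5 and POLD3 were higher in liver than tumour in all 3 mice of subclone 2 and lower in all 3 mice of subclone 13. The share of all genes with opposite directions in the subclones was not counted. The difference between the subclones was -0.575 ± 0.35 for RFC5 and -0.221 ± 0.29 for POLD3 (edgeR adjusted p = 1.0 for both).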

How the results depend on the processing

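Over 14 comparisons and their alternatives, the count of members called was as in the test without a block in 225 of 231 settings, and the median difference of the members stayed within the spread between mice in 203 of 231. With mouse as a replicate block 1 member was called in lung against liver of subclone 2 (MCM2), lung against tumour and lung against liver of subclone 13 (POLA1 in both), and lung between the subclones (GINS4). The block changed no other call of a member. Without a filter on low counts and with DESeq2 1 member was called in lung between the subclones. The shares of all genes called in that comparison with these settings are not given here. Using for mouse 1 of subclone 13 only the library not labelled technical gave a median of 0.345 for the difference between subclones in lung against liver. No result reversed in sign past a threshold; the cause was not tested for any of these.

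Leaving out 1 sample at a time moved the members' median log2 difference between -0.304 and 0.0344 for lung against tumour, -0.00802 and 0.378 for liver against tumour and -0.472 and -0.0919 for lung against liver in subclone 2. In subclone 13 these ranges were -0.268 to 0.0422, -0.151 to 0.116 and -0.250 to 0.111. Between the subclones they were -0.0387 to 0.286 in tumour, 0.0547 to 0.494 in lung and -0.156 to 0.0974 in liver, and for lung against liver of the retransplantation samples -0.0658 to 0.316. For the difference between subclones they were -0.153 to 0.326 in lung against tumour, -0.312 to -0.0329 in liver against tumour and 0.0251 to 0.484 in lung against liver. For the retransplantation difference minus that of the first experiment the range was 0.214 to 0.619. Ranges without 0 were those of lung against liver in subclone 2 and lung between the subclones. The difference between subclones in liver against tumour and in lung against liver, and the difference between the experiments, also had ranges without 0. The other ranges given here included 0. With 3 mice a group, the spread between mice and not the depth of 11807225 counts or more limits what single genes can show.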
